A study of Mus musculus with 7 samples.

Results

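The long unnamed transcribed loci are stretches of the mouse genome from which reads were assembled into a transcribed locus, but to which no gene symbol was given. They were read in gonadal fat of male CD-1 pups, an outbred stock, at postnatal day 21. A locus was selected on 3 measured or listed values: it had no gene symbol, its level was above 1 FPKM (fragments per kilobase of transcript, scaled to the mapped fragments of the library) in at least 1 of the 2 groups, and its listed interval spanned at least 1000 bp. Of 35534 loci in the table, 9743 had no symbol, 5414 of those were above 1 FPKM in a group, and 1877 of those also met the span minimum. The BDE-47 group was 4 pups, 1 per litter, of dams fed 0.2 mg of BDE-47 (a polybrominated diphenyl ether flame retardant) per kg of body weight per day in corn oil, from pregnancy day 8 to postpartum day 21. The Control group was 3 pups, also 1 per litter, of dams fed the corn oil alone. Dosing was of the dams, so the pups were reached through gestation and lactation.

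The table gives 1 pooled value per group and locus, made by the authors from all pups of the group. No value of a single pup, no spread and no depth per pup were used here, so no difference below has an error or a test, and a difference set by 1 pup cannot be told apart from one shared by the group. Differences are given as BDE-47 minus Control on the log2 FPKM scale. A locus was counted as changed when its 2 group values differed at least 2-fold, and a group value of 0 is described as listed at 0, with no fold.

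Transcript assembly from reads finds genes that an annotation lacks, and it also gives separate loci to fragments of known genes, such as stretches of introns, ends of long transcripts and RNA read from the strand opposite to a gene. Immunoglobulin genes are a particular case. In B cells and plasma cells a variable segment is joined to a constant region by DNA recombination, so the transcript of a working antibody gene is not laid out in the reference genome as it is in the cell. The first heavy chain made is mu (Ighm, for IgM), mature naive B cells also make delta (Ighd, for IgD), and the gamma genes (Ighg3, Ighg1, Ighg2b and Ighg2c, for IgG) and alpha (Igha, for IgA) are used after class switching. Each heavy chain pairs with a kappa (Igkc) or lambda (Iglc1, Iglc2, Iglc3) light chain. None of these genes carried a symbol in the table, and in this tissue they were read only as unnamed loci.

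The first 90 coding bases of the first constant exon are shown for the 4 gamma genes, because all 4 lie under a single assembled interval and their likeness bears on what its 5 loci can separate. The sequences are from the GENCODE M21 transcripts (GRCm38, which is mm10), 5′ to 3′, minus strand of chromosome 12. Capitals mark the 29 positions at which the 4 genes do not all carry the same base.
Ighg3, chr12:113361143-113361232: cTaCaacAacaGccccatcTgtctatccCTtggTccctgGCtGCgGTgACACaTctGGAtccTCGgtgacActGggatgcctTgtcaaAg
Ighg1, chr12:113330434-113330523: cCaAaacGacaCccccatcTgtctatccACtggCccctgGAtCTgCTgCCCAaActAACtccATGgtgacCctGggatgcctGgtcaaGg
Ighg2b, chr12:113307844-113307933: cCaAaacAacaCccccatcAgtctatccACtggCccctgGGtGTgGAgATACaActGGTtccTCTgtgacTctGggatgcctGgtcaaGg
Ighg2c, chr12:113288843-113288932: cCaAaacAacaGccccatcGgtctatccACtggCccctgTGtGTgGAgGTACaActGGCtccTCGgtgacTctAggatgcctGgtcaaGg

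Over the whole first constant exon of 291 bases, Ighg1 and Ighg2b were identical at 88.3% of aligned bases, Ighg2b and Ighg2c at 87.6%, and Ighg3 and Ighg2c at 78.4%. Over the shortest annotated coding transcript of each gene, 6 windows of 75 bases (the length of a read) were shared by Ighg2b and Ighg2c, out of 1040 and 1037 windows, and 0 by any other pair of gamma genes. The 4 other constant regions that results turn on are shown the same way, with no base in capitals, since the same letters were not compared among them. Ighm, Ighd and Igha are on the minus strand of chromosome 12, and Igkc is on the plus strand of chromosome 6.
Ighm, chr12:113422641-113422730: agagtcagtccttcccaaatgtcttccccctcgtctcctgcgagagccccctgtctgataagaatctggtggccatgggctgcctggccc
Ighd, chr12:113416235-113416324: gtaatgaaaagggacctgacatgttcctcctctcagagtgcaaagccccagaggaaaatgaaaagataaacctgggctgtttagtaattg
Igha, chr12:113260147-113260236: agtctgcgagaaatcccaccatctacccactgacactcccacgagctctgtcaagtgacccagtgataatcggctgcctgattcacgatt
Igkc, chr6:70726435-70726524: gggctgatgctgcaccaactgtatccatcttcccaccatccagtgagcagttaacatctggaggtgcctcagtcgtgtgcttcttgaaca

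The listed interval is not the length of a transcript. All loci assembled from 1 covered stretch carried the same interval, and 1742 of the 1877 long unnamed loci shared theirs with at least 1 other locus. The 1877 loci lay in 1161 distinct intervals: 728 intervals held 1 of them, 308 held 2 and 125 held 3 or more. The median interval was 8224 bp and the longest was 591108 bp, which was the interval of Slit3 (a secreted guidance protein). A minimum on the interval therefore chose loci inside long covered stretches, and the length of a locus itself is not given by the interval.

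The strand of a locus was read from the numbering of the loci. The numbers ran once along each chromosome and then restarted, and of 20583 named loci with a symbol found once, 20497 (99.6%) had the annotated strand that their run implied, plus for the first run and minus for the second. The library kit did not mark strand, so reads from a gene and from an antisense partner cannot be told apart, and the strand of a locus is that of the assembled model.

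By their neighbours in the interval, the loci fell into 3 kinds. A named locus stood in the same interval for 678 of them, and for 577 of these a named locus was on the opposite strand. Another 1064 shared the interval with unnamed loci only, in all but 6 cases with an unnamed locus on the opposite strand. The remaining 135 were alone in their interval. Intervals that held a named locus were longer, with a median of 43616 bp over loci against 2890 bp for loci with no named locus in the interval. The loci were spread over all chromosomes, from 159 on chromosome 2 to 42 on chromosome 18, 35 on X, 8 on Y and 7 on the mitochondrial genome. The mitochondrial loci had no named locus on their chromosome, and their levels ran between 1.13 and 8.34 FPKM in BDE-47.

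Most of the loci were low. The median level was 1.51 FPKM in BDE-47 and 1.56 FPKM in Control, while named loci above 1 FPKM in a group had medians of 8.88 FPKM in BDE-47 and 9.0 FPKM in Control. Only 126 of the 1877 had a mean of the 2 groups above 10 FPKM. Of the 1877, 1214 were above 1 FPKM in both groups, 328 in BDE-47 alone and 335 in Control alone, and 23 were listed at 0 in BDE-47 and 8 in Control.

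The difference between the groups had no common direction. Over the 1846 loci above 0 in both groups the median difference was 0.03, the quartiles were -0.46 and 0.42, and 959 were higher and 872 lower in BDE-47. At least 2-fold differences were found in both directions: 164 loci (8.88%) were higher in BDE-47, where the share over all 18999 loci above 1 FPKM in a group and above 0 in both, named or not, was 2.93%, and 205 (11.1%) were lower, where the share over those 18999 loci was 10.1%. Among named loci under the same limits the shares were 0.811% higher and 3.87% lower. The levels that chose the loci are the values the differences come from, and named loci entered by the same level rule, so these shares are a description.

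The share of rises was above that of named loci at every level, and the share of falls above it from 2 FPKM upward. Among loci with a larger group value between 1 and 2 FPKM, 8.99% of the long unnamed loci were at least 2-fold higher and 9.66% lower, against 1.75% and 12% of named loci. Among those above 8 FPKM the shares were 8.99% higher and 14.0% lower, against 0.471% and 1.62% of named loci. The unnamed loci with an interval under 1000 bp were shifted downward, with a median difference of -0.62 over 2981 loci, 9.33% at least 2-fold higher and 38.9% at least 2-fold lower. The long loci did not share that shift.

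**Figure D1:**
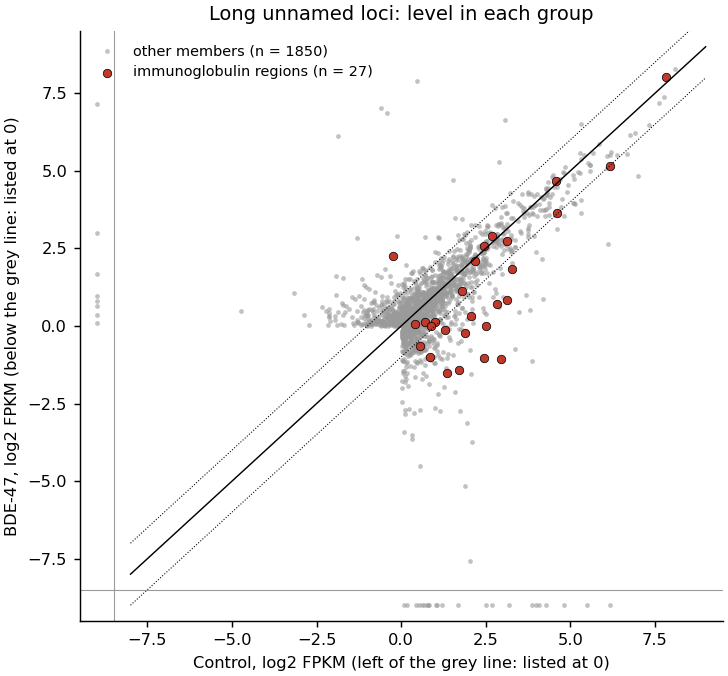
Level of each long unnamed locus in BDE-47 (vertical axis) and Control (horizontal axis), in log2 FPKM, with loci listed at 0 in a group drawn beyond the grey lines. The solid line marks equal levels and the dotted lines a 2-fold difference; 27 loci in immunoglobulin regions are in red, and most of them lie below the solid line.

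**Figure D2:**
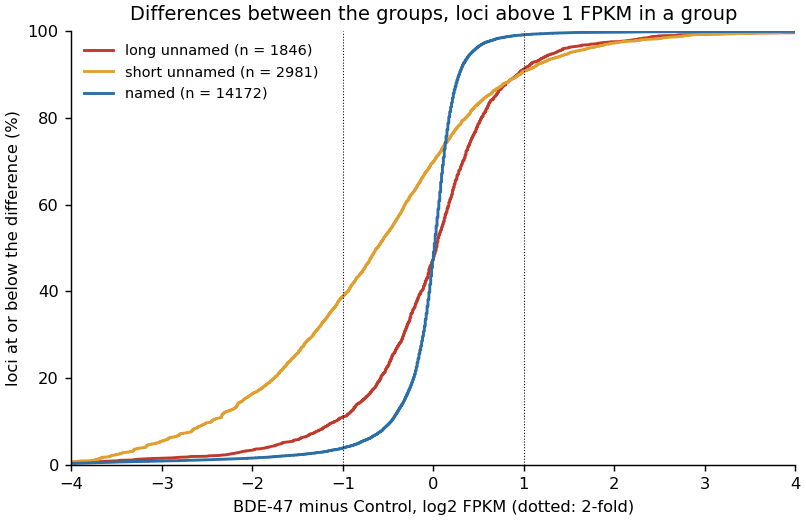
Cumulative share of loci (vertical axis, percent) at or below each difference between BDE-47 and Control (horizontal axis, log2 FPKM), for long unnamed, short unnamed and named loci above 1 FPKM in a group and above 0 in both. The long unnamed curve crosses 50% near 0, as the named curve does, but is less steep, and the short unnamed curve lies to the left.

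Of the 10 highest loci, most lay opposite to named genes. The locus with the highest mean, XLOC_025467, stood on the plus strand of the interval of Tcaf1 (a regulator of the ion channel TRPM8; chr6:42667980-42710074) at 309 FPKM in BDE-47 and 274 FPKM in Control, while the named Tcaf1 locus was at 35.5 FPKM in BDE-47 and 28.8 FPKM in Control. The second was XLOC_007607 over Ighm, described with the immunoglobulins. XLOC_014623, opposite to Ecscr (an endothelial surface protein), was at 168 FPKM in BDE-47 and 217 FPKM in Control. In the Tcaf1 and Ecscr intervals, as in those of Cald1 and Oxtr below, the unnamed locus was more abundant per length than the named one.

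Further loci of the 10 highest lay opposite to Cald1, Sparc and Flna. XLOC_026338, opposite to Cald1 (caldesmon, an actin-binding protein), was at 146 FPKM in BDE-47 and 198 FPKM in Control, and the named Cald1 locus was at 105 FPKM in BDE-47 and 99.0 FPKM in Control. XLOC_004040, opposite to Sparc (osteonectin, a matrix protein), was at 89.3 FPKM in BDE-47 and 161 FPKM in Control, a difference of -0.85, while Sparc itself was at 2288 FPKM in BDE-47 and 2610 FPKM in Control, a difference of -0.19. XLOC_034257, opposite to Flna (filamin A, an actin crosslinker), was at 46.9 FPKM in BDE-47 and 102 FPKM in Control, a difference of -1.12, and the named Flna locus differed by -0.07.

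Another 3 of the 10 highest stood by Oxtr (the oxytocin receptor), over the lncRNA gene Gm39469 and within Rnf213. XLOC_025859, opposite to Oxtr, was at 74.0 FPKM in BDE-47 and 120.3 FPKM in Control, and here the named Oxtr locus was at 19.8 FPKM in BDE-47 and 31.8 FPKM in Control and differed by a like amount, -0.68 beside -0.70 for the unnamed locus. XLOC_032941 over Gm39469 was at 72.0 FPKM in BDE-47 and 108 FPKM in Control. XLOC_006222, on the minus strand under the plus-strand gene Rnf213, was at 28.6 FPKM in BDE-47 and 127 FPKM in Control, a difference of -2.15. Of the 10 highest loci, 7 were lower in BDE-47 and 3 were higher.

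The largest rises came from a single interval. All 4 loci of chr8:123425806-123434029 were in the top 4, with differences of 7.99 (XLOC_031823), 7.65 (XLOC_031822), 7.44 (XLOC_031821) and 7.30 (XLOC_031022). In BDE-47 they were at 69.6, 132, 241 and 117 FPKM, in that order, and in Control at 0.27, 0.66, 1.39 and 0.74 FPKM. The annotation, which was read for genes and exons only, places the stretch in introns of Def8 and of Gm20388, a very long gene model. No annotated exon lies under it, and which RNA these reads came from was not tested. The nearest named locus on each side did not move with it: Tubb3 (a neuronal tubulin), 3796 bp away, was at 0.30 FPKM in BDE-47 and 0.27 FPKM in Control, and the named Def8 locus was at 8.94 FPKM in BDE-47 and 9.51 FPKM in Control. Beyond Tubb3, Mc1r was higher in BDE-47 by 2.66, but at very low levels of 0.083 FPKM in BDE-47 and 0.013 FPKM in Control.

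The other 6 of the 10 largest rises were lower in level or lay in dense gene clusters. XLOC_034619, over the processed pseudogene Gm15163 on X, was at 1.39 FPKM in BDE-47 and 0.037 FPKM in Control, a difference of 5.22. Its partner on the opposite strand, XLOC_035302, was below the level minimum and differed by 5.27, at 0.88 FPKM in BDE-47 and 0.023 FPKM in Control. XLOC_010909, in the interval of Hoxc6 (a homeobox gene), was at 2.1 FPKM in BDE-47 and 0.11 FPKM in Control, while Hoxc6 itself differed by 0.60. XLOC_002545, opposite to the kinase gene Mknk2, was at 7.11 FPKM in BDE-47 and 0.41 FPKM in Control, while Mknk2 differed by 0.19. The Mknk2 and Hoxc6 intervals each held named genes that differed far less than the unnamed locus.

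XLOC_013278 lay in the interval of the H2-T genes, class Ib histocompatibility genes with many near-identical copies, where reads may be split among copies. It was at 99.7 FPKM in BDE-47 and 8.34 FPKM in Control, while the named locus H2-T10,H2-T22,H2-T9 was at 42.8 FPKM in BDE-47 and 46.9 FPKM in Control. XLOC_033045 lay over Muc16 and is described below. XLOC_020880, alone in its interval at chr3:121716511-121721052 with no annotated gene, was at 2.93 FPKM in BDE-47 and 0.30 FPKM in Control, and F3 (tissue factor), 2484 bp away, differed by -0.35.

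The largest falls also came in opposite-strand pairs. The 2 loci of chr12:10157074-10160212 were at 0.0053 (XLOC_007059) and 0.028 FPKM (XLOC_006349) in BDE-47 and at 4.08 and 3.73 FPKM in Control, differences of -9.60 and -7.05. The stretch overlaps the end of Gm5182, a processed pseudogene on the plus strand. Its first 120 annotated bases inside the interval are shown, since an RNA-derived copy of another gene may share reads with its source.
Gm5182, chr12:10157074-10157193, plus strand: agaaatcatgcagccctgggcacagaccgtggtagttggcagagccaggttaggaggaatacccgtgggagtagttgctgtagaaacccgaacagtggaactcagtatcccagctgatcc

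The pair at chr11:79990607-79992349, 756 bp from Suz12 (a Polycomb subunit) and over no annotated gene, was at 0.074 and 0.11 FPKM in BDE-47 and at 4.23 and 3.84 FPKM in Control, while Suz12 was at 12.5 FPKM in BDE-47 and 12.8 FPKM in Control. XLOC_021449, alone in its interval over Junos (a non-coding RNA gene beside Jun), was at 0.46 FPKM in BDE-47 and 14.6 FPKM in Control, a difference of -5.00, while Jun (an AP-1 transcription factor), 1131 bp away, differed by -0.20. XLOC_011965, alone at chr16:37440821-37450815 with no annotated gene, was at 0.60 FPKM in BDE-47 and 10.3 FPKM in Control. Beside Suz12 and Jun, the unnamed locus differed by more than 10-fold and the named gene by under 1.5-fold.

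The other 4 of the 10 largest falls were XLOC_018414 on chromosome 2 (a difference of -5.07, with a Control level of 1.48 FPKM), XLOC_020937 in the interval of Sgms2 (-4.47), XLOC_007604 over the gamma genes (-4.0) and XLOC_035214 on X (-3.96, with a Control level of 1.24 FPKM). Both the chromosome 2 and the X locus lay over no annotated gene.

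Some loci were listed at 0 in a group while other loci of the same interval were not. XLOC_035431, at chrY:90737491-90741364 near the pseudoautosomal gene Erdr1, was at 141 FPKM in BDE-47 and listed at 0 in Control. The 2 other loci of that interval were at 4.00 and 2.03 FPKM in BDE-47 and 4.26 and 2.45 FPKM in Control. XLOC_011869 on chromosome 16 was at 8.06 FPKM in BDE-47 and listed at 0 in Control, and the 3 others of its interval were above 0 in both groups. XLOC_025871 on chromosome 6, 13282 bp from Oxtr, was at 3.16 FPKM in BDE-47 and listed at 0 in Control, beside a locus at 2.01 FPKM in BDE-47 and 2.81 FPKM in Control. The next were XLOC_024694 on chromosome 5 (1.97 FPKM in BDE-47) and XLOC_008757 in the interval of the zinc finger gene Zfp458 (1.73 FPKM in BDE-47), both listed at 0 in Control.

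In the other direction, XLOC_023707 on chromosome 5, over the protein-coding gene 4930522L14Rik and the pseudogene Gm8508, was listed at 0 in BDE-47 and was at 72.0 FPKM in Control, and a second locus of the interval was at 1.08 FPKM in BDE-47 and 0.59 FPKM in Control. XLOC_029883, in the interval of Acsm5 (a medium-chain acyl-CoA synthetase of mitochondria), was listed at 0 in BDE-47 and was at 16.8 FPKM in Control, beside 2 named Acsm5 loci at 4.17 and 3.63 FPKM in BDE-47 and 3.73 and 11.7 FPKM in Control. XLOC_026052, over Cracr2a, was listed at 0 in BDE-47 and at 19.6 FPKM in Control, with its 2 neighbours under 1 FPKM in both groups. These 3 loci thus shared an interval with loci read in both groups.

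XLOC_016413 over a processed pseudogene on chromosome 19 (listed at 0 in BDE-47, 28.1 FPKM in Control) and XLOC_010388 were each alone in their interval. XLOC_010388, at chr15:36945171-36948936 over the lncRNA gene Gm34590, was listed at 0 in BDE-47 and at 44.6 FPKM in Control, and Zfp706, 48090 bp away, was at 17.8 FPKM in BDE-47 and 18.4 FPKM in Control. The longest exonic stretch of Gm34590 inside the interval is shown, as the annotated RNA under this locus.
Gm34590, chr15:36948887-36948936, plus strand: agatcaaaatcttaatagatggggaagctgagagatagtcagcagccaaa

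Immunoglobulin regions held 27 of the 1877 loci: 15 in the heavy chain cluster (chr12:113254830-116010093), 7 in the kappa cluster (chr6:67555497-70726966) and 5 in the lambda cluster (chr16:19061618-19260859). All 27 overlapped an annotated immunoglobulin gene. In BDE-47, 22 of the 27 were lower and 5 were higher, with a median difference of -1.0, and 14 were at least 2-fold lower, 1 of them (XLOC_025650) at the limit itself, and 1 at least 2-fold higher. The share lower, 51.9%, stood beside 10.1% over all loci under the same limits. Of the 27, 8 passed the level minimum through Control alone and 1 through BDE-47 alone. All of those 8 were among the 14 falls, so the share is in part set by the minimum. Several loci lay in 1 interval, as did 5 over the gamma genes, and are not independent. The share is therefore not one of separate genes. The heavy chain classes did not behave alike.

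The mu locus was the highest and differed little. XLOC_007607, on the strand of Ighm, was at 259.6 FPKM in BDE-47 and 229 FPKM in Control, and XLOC_006990, on the opposite strand, was at 25.6 FPKM in BDE-47 and 24.1 FPKM in Control. The 4 loci over Igha were likewise close, between 4.23 and 7.46 FPKM in BDE-47 and between 4.50 and 8.69 FPKM in Control, with differences from -0.39 to 0.21. Neither class had a locus past 2-fold.

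The delta and gamma loci were lower in BDE-47 without exception. The 4 loci over Ighd were at 0.86, 0.50, 3.61 and 1.79 FPKM in BDE-47 and at 3.71, 1.79, 9.65 and 8.82 FPKM in Control, differences of -2.11, -1.85, -1.42 and -2.30. The 5 loci of the gamma interval (chr12:113287298-113361169) were at 0.38, 1.25, 1.01, 0.48 and 0.49 FPKM in BDE-47 and at 3.29, 4.2, 5.74, 7.67 and 5.46 FPKM in Control, differences of -3.13, -1.75, -2.51, -4.0 and -3.47. Each of these 9 loci was at least 2-fold lower, 2 of the delta and 3 of the gamma loci having passed the level minimum through Control alone, and no BDE-47 value of the gamma interval reached the lowest Control value. The delta loci shared 1 interval and the gamma loci another, with no strand mark on the reads, so the 9 are not separate results. Which locus belongs to which of the 4 gamma genes printed above is not given.

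The light chain loci were lower in BDE-47 with 1 exception, over a wide range. Over Igkc, XLOC_025650 was at 35.8 FPKM in BDE-47 and 71.5 FPKM in Control, and XLOC_026593 on the opposite strand was at 12.6 FPKM in BDE-47 and 24.3 FPKM in Control, differences of -1.0 and -0.95. The 5 loci over kappa variable segments were all lower, from -0.66 to -2.86. In the lambda cluster XLOC_011810 over Iglc1 was the 1 locus of all 27 that was at least 2-fold higher, at 4.76 FPKM in BDE-47 and 0.85 FPKM in Control, whereas the loci over Iglc3 and Iglc2 differed by -1.41, -0.35, -0.87 and -0.57. Iglc2 and Iglc3 are close copies of each other, so reads may be split between them.

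**Figure D3:**
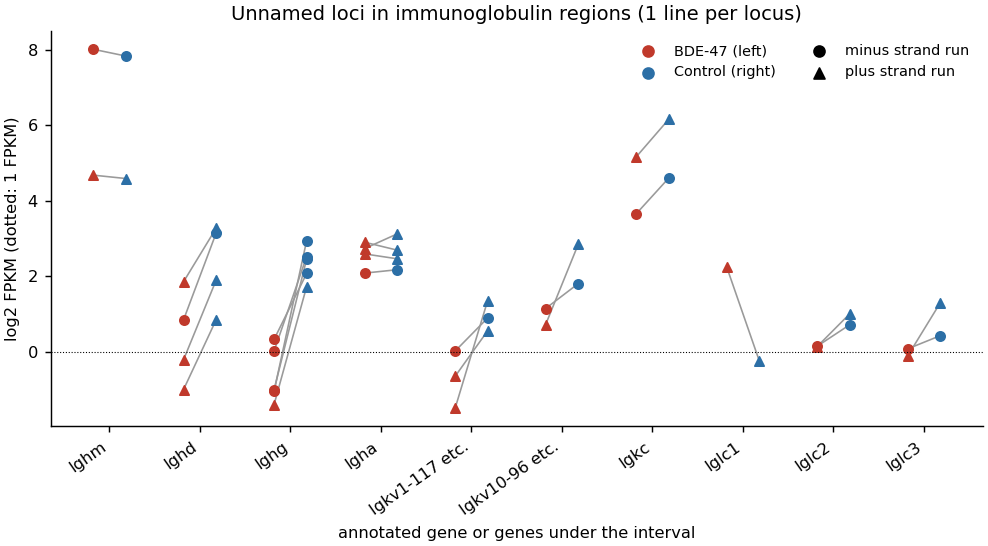
Level in log2 FPKM (vertical axis) of the 27 loci in immunoglobulin regions, grouped by the annotated gene under the interval (horizontal axis), with BDE-47 on the left and Control on the right of each line. Lines over Ighm and Igha are nearly flat, those over Ighd, Ighg and Igkc are lower on the BDE-47 side, and Iglc1 is higher on the BDE-47 side.

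B cell markers were low in both groups. All 10 B cell genes were measured, with a summed level of 9.25 FPKM in BDE-47 and 15.2 FPKM in Control and none at 0, and the 6 that were above 1 FPKM in a group were all lower, 2 of them at least 2-fold. Of the 4 under 1 FPKM in both groups, Blk differed by 0.53, Vpreb3 by 0.22, Cr2 by -0.97 and Fcer2a by -1.1. Cd22, an inhibitory receptor of B cells, was at 0.69 FPKM in BDE-47 and 1.68 FPKM in Control. Of the plasma cell list 9 of 10 were measured, summing to 102 FPKM in BDE-47 and 106 FPKM in Control with none at 0. Most of both sums was Xbp1, at 82.1 FPKM in BDE-47 and 80.4 FPKM in Control, so the sums say little about the other genes. Of the 6 above 1 FPKM in a group, 4 were lower and 2 higher in BDE-47, none past 2-fold. Jchain, the joining chain of IgM and IgA, was at 3.20 FPKM in BDE-47 and 4.76 FPKM in Control. In whole tissue, fewer cells of a type and less RNA per cell cannot be told apart, and the part of either list in the immunoglobulin values was not tested. The 1 locus over a T cell receptor gene, XLOC_008373 over Tcrg-C4, was at 1.04 FPKM in BDE-47 and 3.03 FPKM in Control. Of the T cell list 6 of 8 genes were measured, summing to 3.45 FPKM in BDE-47 and 2.24 FPKM in Control with none at 0, and the 2 above 1 FPKM in a group, Cd3e and Cd3g of the receptor complex, differed by 0.76 and 0.71; the part of that list in the Tcrg-C4 value was not tested.

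Most hepatocyte and epididymis markers were lower in BDE-47. Of 8 hepatocyte genes 7 were at least 2-fold lower in BDE-47, with a sum of 224 FPKM in BDE-47 and 842 FPKM in Control. The 3 epididymis genes above 1 FPKM in a group and above 0 in both were all at least 2-fold lower. Another 4 of the 7 epididymis genes were listed at 0 in BDE-47, most of them above 1 FPKM in Control. The epididymis list summed to 0.32 FPKM in BDE-47 and 43.7 FPKM in Control. Macrophage genes were all lower, none past 2-fold, and the 9 adipocyte genes had a median difference of 0.06. Of the muscle genes above 1 FPKM in a group, Actg2 and Myh11 of smooth muscle differed by 3.13 and 1.28 and Acta1 of skeletal muscle by -2.07. The part of these lists in the values of the unnamed loci was not tested.

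Unnamed loci paired on opposite strands of an interval had close levels. In 309 intervals of at least 1000 bp that held exactly 1 unnamed locus per strand and nothing else, the 2 levels differed by a median of 0.28 on the log2 scale, and in 240 pairs (77.7%) by less than 2-fold. The differences between the groups of the 2 loci were within 0.5 of each other in 213 pairs (68.9%) and had the same sign in 228, and Pearson's r between them was 0.72 over the 309 pairs, which share reads of the same libraries and, with no strand mark, may share reads of the same RNA. In 1894 intervals that held 1 named locus per strand, the levels differed by a median of 2.25, r was 0.23 and the sign was the same in 1080, but the 2 differences were within 0.5 of each other in 75.0% of pairs, with a median gap of 0.24 against 0.32 for the unnamed pairs. The unnamed pairs thus had more similar levels and a higher r, not a smaller gap between their differences. Long unnamed loci also spanned a narrower range, with means of the 2 groups up to 292 FPKM against 32324 FPKM for named loci. The part of that range in the closer levels of the unnamed pairs was not tested. The pairs at Suz12, Gm5182 and Gm15163 described above are unnamed pairs. Their differences lie far from 0 and weigh heavily in the r of the unnamed pairs, and r without them was not computed.

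In 225 intervals with 1 unnamed and 1 named locus on opposite strands, the named locus had the higher level in 214, and the unnamed locus stood at a median of 14.0% of the named level. The r of the 2 differences was 0.28, and they were within 0.5 of each other in 72% of pairs. Of the unnamed loci, 7 (3.11%) were at least 2-fold higher and 19 (8.44%) lower, close to the 2.93% and 10.1% over all loci under the same limits, and of the named partners 0 were higher and 2 lower. In 25 of the 225 the unnamed locus was past 2-fold and its named partner was not, as at Flna.

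**Figure D4:**
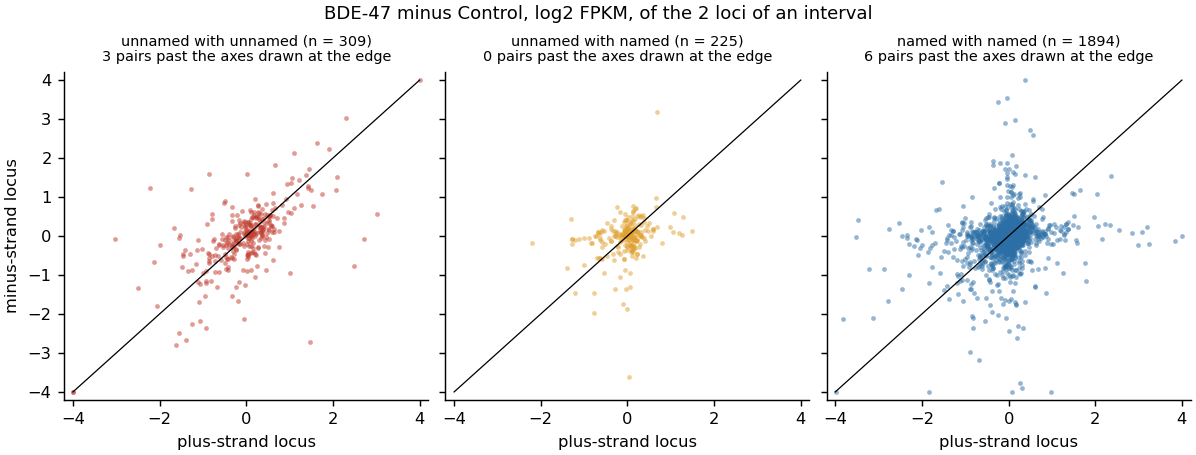
Difference between BDE-47 and Control (log2 FPKM) of the minus-strand locus (vertical axis) and the plus-strand locus (horizontal axis) of intervals that hold exactly 1 locus per strand, in 3 panels by whether the loci were named. Points of the unnamed pairs are spread along the line of equal differences. Most points of the named pairs lie near the origin, and many of those far from it lie near an axis.

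The loci lay close to named genes. For 678 the distance to the nearest named locus was 0, for 417 it was up to 2 kb, for 292 it was over 2 kb and up to 10 kb, for 291 it was up to 50 kb and for 192 it was longer, with 1256902 bp the longest, and the 7 mitochondrial loci had none. Of those within 10 kb with no named locus in their interval and a known strand of the neighbour, 352 lay downstream and 318 upstream, so neither end of the gene was favoured by much. The nearest named locus was seldom past 2-fold as well: of 343 loci past 2-fold whose nearest named locus was above 0 in both groups, the named locus was past 2-fold in the same direction for 14 (4.08%) and in the opposite direction for 17 (4.96%). Where only nearest named loci above 1 FPKM in a group were counted, these were 7 (2.32%) and 3 (0.993%) of 302, and among all named loci above 1 FPKM in a group 0.811% were past 2-fold upward and 3.87% downward. The low shares are thus near those of named loci in general and are no trait of the neighbours of these loci. For nearest named loci of any level no such share was computed.

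Most of the loci had an interval that overlapped an annotated gene even though the table gave them no symbol. Overlap was that of the interval, not of the locus itself, and an interval that holds a named locus is bound to overlap genes. Of the 1877, 1526 had an interval over a gene of GENCODE M21 and 1435 over an annotated exon, on either strand. Of the 1199 with no named locus in the interval, 849 had an interval over a gene and 758 over an exon. The gene covering most of the interval was protein-coding for 394 of these 1199, a long non-coding RNA gene for 317, a pseudogene for 86 and an immunoglobulin gene for 19, and 350 overlapped no gene. Over protein-coding genes the median difference was 0.14, with 50 of 389 (12.9%) at least 2-fold higher and 24 (6.17%) lower, beside 2.93% and 10.1% over all loci under the same limits. Of the 50 rises, 7 lay over 4931428L18Rik, 5 over Muc16, 5 over Gm20388 and 4 over Rnf213. Loci of 1 gene are not independent, so the share is not one of separate genes. Over no gene the median was 0.02, with 41 of 347 (11.8%) higher and 54 (15.6%) lower, and over long non-coding RNA genes it was 0.07, with 23 of 311 (7.4%) higher and 25 (8.04%) lower.

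A few annotated genes had many of the loci over them in intervals without a named locus; they were picked after their values were seen. Rnf213, a very large ubiquitin ligase, had 23 loci in 2 intervals, with differences from -2.15 to 2.27 and a median of 0.20, 4 at least 2-fold higher and 2 lower. Hmcn2 (hemicentin 2, an extracellular matrix protein) had 22 loci in 2 intervals, with a median of -0.07, 1 higher and 1 lower. Neither gene had a named locus in the table. Both genes are on the plus strand, whereas 21 of the 23 loci and 20 of the 22 were on the minus strand, and in each set the differences lay on both sides of 0.

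The loci over Muc16 and 4931428L18Rik were mostly higher in BDE-47. Muc16 encodes a large membrane mucin of mesothelium and other epithelia, and had no named locus. Its 15 loci in 11 intervals (gene at chr9:18495455-18674530, minus strand) ranged from 1.21 to 18.1 FPKM in BDE-47 and from 0.26 to 18.1 FPKM in Control, with a median difference of 0.62, 5 at least 2-fold higher and 0 lower. Of the 15, 12 were on the strand of the gene, and 5 passed the level minimum through BDE-47 alone. Those 5 could enter only by being higher in BDE-47. Of the 5 rises, all but XLOC_033044 entered that way, and it was at 7.26 FPKM in BDE-47 and 2.11 FPKM in Control. The largest rise was that of XLOC_033045, at 3.05 FPKM in BDE-47 and 0.26 FPKM in Control, a difference of 3.54. Of the 5 mesothelial genes, 4 were higher in BDE-47 and none past 2-fold, with a sum of 116 FPKM in BDE-47 and 77.9 FPKM in Control and none at 0; the part of that list in the Muc16 values was not tested.

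The 11 loci over 4931428L18Rik (chr1:30997842-31222684), a protein-coding gene of which no function is given here, lay in 5 intervals at low levels, with medians of 1.26 FPKM in BDE-47 and 0.72 FPKM in Control. Their median difference was 1.21, and 7 were at least 2-fold higher and 0 lower, but 8 of the 11 passed the level minimum through BDE-47 alone, so the minimum favoured rises here. The 8 unnamed loci of these intervals that did not pass it differed by 0.32 to 2.03, with 4 at least 2-fold higher. The named locus of that gene, in another interval, was at 0.031 FPKM in BDE-47 and listed at 0 in Control. Of the 11 loci, 6 were on the strand of the gene.

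In the intervals of Stard13 and Sgms2 the loci were lower in BDE-47. Stard13 encodes a GTPase-activating protein. All 8 long unnamed loci of its interval (chr5:151037512-151432118) were at least 2-fold lower in BDE-47, from 0.088 to 1.20 FPKM in BDE-47 and from 1.09 to 4.32 FPKM in Control, with differences between -3.82 and -1.21. Since 7 of the 8 passed the level minimum through Control alone, the minimum favoured falls here, and the 6 unnamed loci of the interval that did not pass it differed by -1.94 to 0.21, with 3 at least 2-fold lower and 0 higher. The named Stard13 locus was at 10.4 FPKM in BDE-47 and 11.9 FPKM in Control, a difference of -0.19.

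Sgms2 encodes a sphingomyelin synthase. Of the 6 long unnamed loci of its interval that met the level minimum (chr3:131318985-131490157), 5 did so through Control alone, 2 were listed at 0 in BDE-47 and the other 4 were at least 2-fold lower, with differences of -2.27, -1.09, -3.28 and -4.47. The 2 unnamed loci left out by the minimum differed by -0.68 and -0.5, and neither was past 2-fold. The named Sgms2 locus was at 2.75 FPKM in BDE-47 and 4.41 FPKM in Control, a difference of -0.68. In both intervals these loci were low, with no Control value above 4.32 FPKM.

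**Figure D5:**
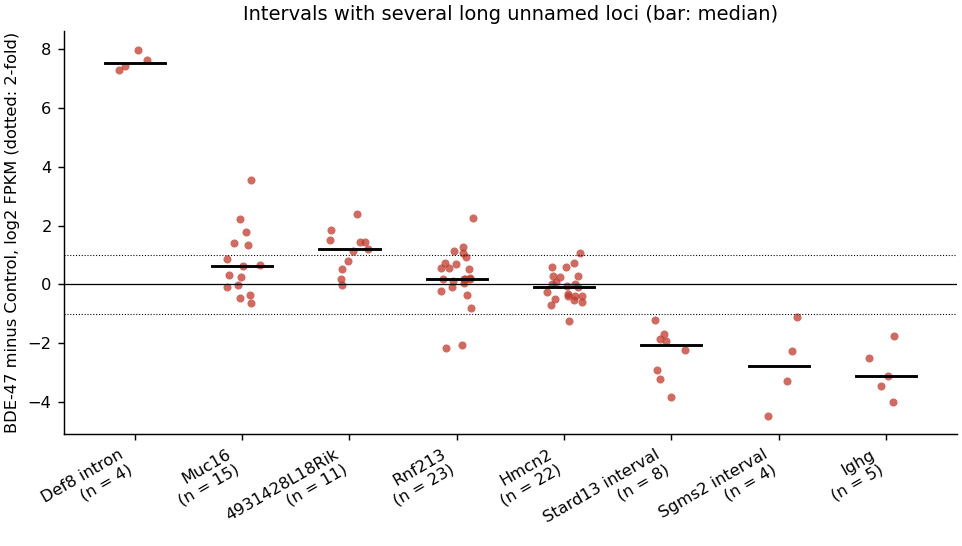
Difference between BDE-47 and Control (vertical axis, log2 FPKM) of each long unnamed locus above 0 in both groups, for 8 genes or intervals with several of them (horizontal axis); bars are medians and dotted lines mark 2-fold. The 4 loci in the Def8 intron were drawn because of their large rises, and lie at 7.30 or above. Those of the Stard13, Sgms2 and Ighg intervals all lie below -1, and those of Rnf213 and Hmcn2 lie on both sides of 0.

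The 5 loci with the longest intervals stood in the intervals of Slit3, Pcdh7 (a protocadherin), Utrn (utrophin) and Adamts9 (a matrix protease, with 2 of the loci), and none of these 5 loci was past 2-fold. XLOC_005173 of the Slit3 interval was at 30.5 FPKM in BDE-47 and 39.4 FPKM in Control, XLOC_024488, opposite to Pcdh7, was at 3.68 FPKM in BDE-47 and 2.75 FPKM in Control, and XLOC_002110, opposite to Utrn, was at 1.91 FPKM in BDE-47 and 1.27 FPKM in Control. At the span minimum, the 3 loci just inside had intervals of 1000, 1000 and 1003 bp and the 3 just outside had 998, 998 and 996 bp. Both sets had levels under 5 FPKM in both groups. At the level minimum, the 3 just inside had a larger group value of 1.01 FPKM each, and the 3 just outside had 1.00 FPKM each, so the limit runs through loci that cannot be told apart by level.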

How the data were processed

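Poly(A) RNA from gonadal fat of 4 BDE-47 and 3 Control pups was sequenced by the authors as single-end reads of 75 cycles. Per the paper and the submitters' processing notes, alignment by the authors was by TopHat2 (build mm10), loci were assembled by Cufflinks 2.1.1, group levels came from Cuffdiff 2.1.1, and 1 more control library, of lower read number, was set aside. Which annotation and strand setting were used is not given in the sources used here. Per locus, the deposited table holds log2 FPKM as 1 pooled value per group, with -10 for 0 FPKM; 35534 loci were read, and 1 empty line was passed over. Its columns of the authors' own ratio, q value and significance call were not used. Depth per pup is unknown, so no interval, error or test is given.

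Differences were BDE-47 minus Control log2 FPKM of loci above 0 in both groups; changed means at least 2-fold. Intervals were compared with GENCODE M21 (GRCm38) gene bodies and exons with Python 3.11.15, pandas 2.3.3 and Biopython 1.88. Immunoglobulin clusters were at least 10 annotated immunoglobulin genes with gaps of at most 1 Mb. Interval, strand-run and distance code was tested on simulated data. Loci named in the text were the 10 highest means, the 10 largest rises and falls, up to 5 listed at 0 in 1 group, the 12 highest in immunoglobulin regions, the 5 longest and the 3 on each side of each minimum; others were named after their values were seen. The value of 1 marker gene is not reported here. The members and lists were chosen with earlier results of these data known. Alternatives were other span, level, fold and distance limits, pseudocounts of 0.1 and 1 FPKM, rescaling to the median of named loci, widened immunoglobulin bounds and, added after seeing the data, 1 locus per interval, only loci with no named locus in the interval, and the immunoglobulin median without the gamma interval.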

Additional observations from a re-analysis of the deposited data

How the results depend on the processing

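No error could be given, since only pooled group values were used; leaving out single pups was not possible, and a difference cannot be assigned to all pups of a group. No paired analysis was possible because the table holds no values of single pups. Counts were held unchanged when within 1.5 times the main count and medians when within 0.1 on the log2 scale; 25 of 44 alternatives were. The number of loci, 1877, became 828 above 2 FPKM in a group, 1214 above 1 FPKM in both, and, chosen after seeing the data, 1161 with 1 locus per interval and 1199 with no named locus in the interval. Loci at least 2-fold higher, 164, became 332 at a fold of 1.5, 45 at a fold of 4, 49 with a pseudocount of 1 FPKM, 71 above 2 FPKM, 48 above 1 FPKM in both and 84 with 1 locus per interval. Loci at least 2-fold lower, 205, became in the same order 365, 62, 104, 105 and 62, and 124 with no named locus in the interval. The immunoglobulin median of -1.0 became -0.84 with a pseudocount of 1 FPKM and -0.88 without the gamma interval, the last chosen after seeing the data. Loci past 2-fold with their nearest named locus, 14, became 7 when that locus had to be above 1 FPKM in a group. These follow from fewer loci or a larger or smaller limit, or from a pseudocount that draws low values together. The median over all the loci was 0.03 and ranged from -0.05 (1 locus per interval) to 0.06, so its sign is not fixed.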
